A study of Arabidopsis thaliana with 12 samples.

Results

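The plastid gene cluster *psbD*, *psbC* and *psbZ* was followed through an RNA co-immunoprecipitation experiment, from the long leader in front of *psbD* to the RNA past the end of *psbZ*. The cluster is represented by the plus-strand segments that lie wholly within nt 31500 to 36100 of the TAIR10 plastid genome, which are 5 of 555 segments in the precipitates and 64 of 574 segments in the inputs. A segment is a stretch of RNA with a similar ratio between the lines, and its borders were set by the authors separately for precipitates and inputs. The stretch was chosen on measured values, because input segments in the leader and past *psbZ* differed between the lines. The input difference is therefore a description that no test here supports. The tests compare the baits in the precipitates, which came from the same pools of seedlings.

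RNA was sequenced from 3 pools per line, each of about 10 g of Arabidopsis seedlings aged 10 days, as anti-YFP precipitate and as input, which gives 12 libraries. The *At*MKIP1-YFP line carried the tagged protein under the *UBQ10* promoter in the *mkip1-2* mutant, and *At*MKIP1 was studied as a partner of the plastid intron maturase MatK. The control line carried *At*BE3-YFP, a starch branching enzyme with the same tag and promoter, in Col-0 with its own *At*MKIP1. Bait, genetic background and transgenic line therefore changed together and cannot be told apart. Seedlings of all groups grew on Basta plates under alternating light and dark, and whole seedlings were pooled. The libraries held 119799 to 319005 mapped plastid reads in the precipitates and 2213500 to 2868106 in the inputs. The tables hold plastid RNA alone, so no marker of a tissue could be looked at.

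*psbD* encodes the D2 protein of the photosystem II reaction centre, *psbC* encodes the inner antenna protein CP43, and *psbZ* encodes a small membrane subunit of the same complex. In land plants the genes are transcribed together into several overlapping RNAs. A promoter far upstream of *psbD* responds to blue light through the sigma factor SIG5 and gives RNAs with a long leader, while RNAs with shorter leaders arise from start sites or processing nearer to the gene.

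In the annotation *psbD* lies at nt 32711 to 33772, *psbC* at nt 33720 to 35141 and *psbZ* at nt 35751 to 35939, all on the plus strand. Their coding lengths are 1062, 1422 and 189 nt. The gene *trnS*, a tRNA gene, lies on the minus strand between *psbC* and *psbZ* at nt 35312 to 35403. The tRNA genes *trnT* at nt 31369 to 31440 and *trnG* at nt 36490 to 36560 flank the cluster on the plus strand. The leader is the most AT-rich stretch, with 26.59% G and C, against 41.81% in *psbD*, 43.46% in *psbC* and 34.92% in *psbZ*.

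The sequences at the borders that carry the results are given here as DNA of the plus strand, 5′ to 3′, from the RefSeq plastid genome of TAIR10. The first pair shows where the first leader segments wholly inside the window began. They are given for the precipitates (Pltd:31724-31753) and the inputs (Pltd:31779-31808), with the first 15 nt of each segment in capitals. These borders lay 972 and 917 nt before the *psbD* start codon. A border marks a change in the ratio between the lines and is not a mapped RNA end.
leader start in the precipitate: taacccatcgaatcaTGACTATATCCACTA
leader start in the input: ttaaattgaaacagtAGATTTTTTTTATTT

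The next sequence shows the leader where the input rose steeply (Pltd:32533-32562), with capitals from the border 163 nt before the start codon.
step in the input: ttcgaaaccaattaaATGAAATTCTAAGGG

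The following sequences show the stretch inside *psbD* with the lowest ratio between the baits in the precipitates (Pltd:33406-33462), and the shortest precipitate segment, inside *psbC* (Pltd:33933-33976), each with the segment in capitals. The former covers nt 706 to 742 of the *psbD* frame, codons 236 to 248, and the latter nt 234 to 237 of the annotated *psbC* frame.
psbD 37-nt segment: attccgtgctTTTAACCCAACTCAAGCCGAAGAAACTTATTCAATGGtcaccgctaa
psbC 4-nt segment: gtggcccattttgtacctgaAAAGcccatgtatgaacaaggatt

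The last sequences show the 53 nt shared by the 2 frames (Pltd:33710-33782), from the annotated ATG of *psbC* to the TAA of *psbD* in capitals, and the end of *psbZ* (Pltd:35925-35954), with the bases past the frame in capitals. Reads over the shared bases cannot be given to *psbD* or *psbC*.
psbD-psbC overlap: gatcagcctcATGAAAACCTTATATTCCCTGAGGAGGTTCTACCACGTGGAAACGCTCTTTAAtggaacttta
end of psbZ: tctcttatctcttgaATTCATTCGTTGCAG

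The question in the inputs was how much RNA of each stretch the lines held before precipitation. In the inputs, the values were higher in the *At*MKIP1-YFP line in nearly every segment wholly inside the window, most at both ends and least in *psbC*. The log2 ratio of *At*MKIP1-YFP over *At*BE3-YFP was above 0 for 63 of 64 segments, with a median of 0.39 over the cluster against 0.04 over the 506 tested input segments that do not touch it. The one below 0 lay in *psbC* at nt 34150 to 34230, with −0.03 (standard error 0.17). Every *At*MKIP1-YFP library lay above every *At*BE3-YFP library for 15 of 64 segments, where 9.27% of all 572 tested input segments did so. At an adjusted p under 0.01 in edgeR's quasi-likelihood test, 8 of 64 segments and 1.57% of all tested input segments were higher. The choice of the stretch fixed these counts, so they are no test of the cluster and nothing is read from them. In pools of whole seedlings, fewer cells of a type and less RNA per cell cannot be told apart.

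**Figure D1:**
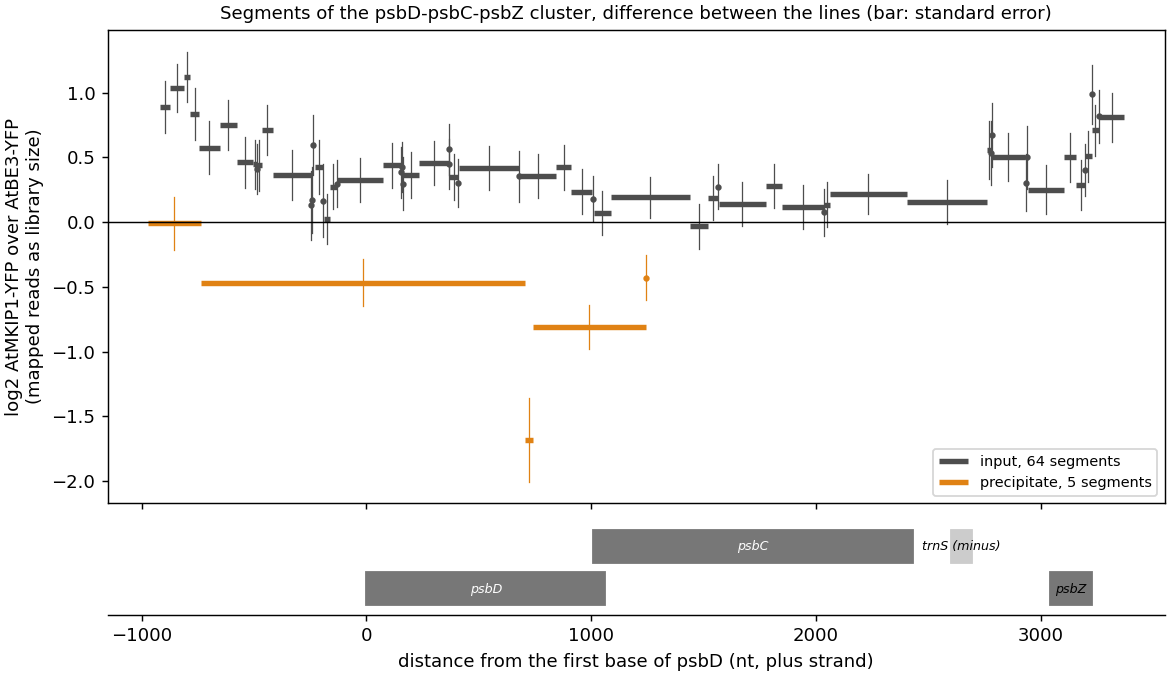
The log2 ratio of *At*MKIP1-YFP over *At*BE3-YFP (vertical axis, mapped reads as library size) is drawn for each segment against its distance in nt from the first base of *psbD*, with thin bars for 1 standard error and dots for very short segments. Input ratios are largest in the upstream leader (up to 1.12), at the end of *psbZ* (0.99) and past it (0.71 to 0.82), and near 0.14 in *psbC*, while the 5 precipitate ratios lie between −1.68 and −0.01.

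The 2 largest input ratios stood in the leader between nt 31794 and nt 31964, where its segments wholly inside the window begin. The segment at nt 31837 to 31897 had 89.00, 131.9 and 156.9 reads per 1000000 mapped plastid reads (RPM) in the *At*MKIP1-YFP libraries 1 to 3, and 52.54, 70.48 and 62.39 in the *At*BE3-YFP libraries. The segment after it, nt 31898 to 31927, had 69.12, 108.4 and 121.3 against 39.40, 52.64 and 45.97 RPM. In these segments the groups did not overlap, and *At*MKIP1-YFP library 1 was the lowest of its line. Their log2 ratios were 1.04 (standard error 0.19) and 1.12 (0.19), and those of the segments on either side of the pair were 0.89 (0.20) at nt 31794 to 31836 and 0.83 (0.20) at nt 31928 to 31964.

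Toward *psbD* the ratio declined and then rose again. From nt 31965 to nt 32462 the 8 leader segments had log2 ratios between 0.36 and 0.75, with the highest at nt 32059 to 32133. That segment had 41.11, 61.72 and 94.49 RPM in *At*MKIP1-YFP and 32.47, 45.05 and 41.05 in *At*BE3-YFP, so the groups overlapped. The 5 segments from nt 32463 to nt 32520 ranged from 0.13 to 0.59. The segment at nt 32521 to 32547, just before the rise of the signal, had a log2 ratio of 0.03 (standard error 0.19), with 40.21, 54.39 and 71.13 against 56.18, 57.54 and 50.08 RPM. The groups overlapped there. The last leader segments, nt 32548 to 32782, had log2 ratios of 0.27, 0.30 and 0.33. The next segment, nt 32783 to 32862 in *psbD*, had 0.44, and the groups overlapped in each of these.

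Levels along the input are compared per position, as the RPM divided by the number of places where a read can start and overlap the segment. Reads were 18 to 60 nt long, so each rate is given for the longest and the shortest read. The end of the leader next to *psbD* was more abundant per position than the leader segments before it that lie wholly inside the window. In the *At*MKIP1-YFP inputs the mean rate was 0.26 to 0.31 RPM per position at nt 32297 to 32462 and 3.37 to 4.02 at nt 32582 to 32782, which runs into *psbD*. In the *At*BE3-YFP inputs the rates were 0.20 to 0.25 and 2.69 to 3.20.

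This step can be read without an assumption on read length from 2 segments of 2 nt each. At nt 32519 to 32520 the counts were 15, 23 and 48 in *At*MKIP1-YFP and 25, 23 and 25 in *At*BE3-YFP. At nt 32580 to 32581, 131 nt before the start codon, they were 253, 370 and 498 against 331, 268 and 270. Within a library the second was 10.4 to 16.9 times the first in *At*MKIP1-YFP and 10.8 to 13.2 times in *At*BE3-YFP. The ranges overlap, so no difference between the lines in the height of the step was seen beyond the spread. Both lines thus had more than 10 times as many reads close to *psbD* as at the point just upstream in the leader.

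Summed over each stretch, *psbD* and *psbC* had smaller ratios of means than the leader segments (1.35). Over the 16 segments of *psbD* the summed counts were 3577, 4693 and 5354 RPM in *At*MKIP1-YFP and 3370, 3482 and 3636 in *At*BE3-YFP, with a ratio of means of 1.30. Over the 11 segments of *psbC* they were 8516, 10100 and 11640 against 9159, 8564 and 9040, with a ratio of 1.13. In both genes *At*MKIP1-YFP library 1 lay within or next to the control range, and the ratio rests on libraries 2 and 3. At reads of 60 nt the highest rate of the cluster was in *psbC* at nt 34774 to 35113, with 8.32 to 9.30 RPM per position in *At*MKIP1-YFP and 7.16 to 8.01 in *At*BE3-YFP. A read counts in every segment it overlaps, so the sums can be compared between libraries but not between stretches.

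The signal fell behind *psbC*. The segment at nt 35114 to 35471, which spans the end of *psbC* and the opposite strand of *trnS*, had 1.84 to 2.04 RPM per position in *At*MKIP1-YFP. The 7 remaining segments of the spacer had 0.28 to 0.94, and in *psbZ* the rate was 0.44 to 2.31. Each segment of *psbZ*, the small subunit gene, was below each segment of *psbC* per position in both lines, at either read length. The 5 segments given to *psbZ* begin at nt 35815, so its first bases count in the spacer segment at nt 35652 to 35814 (log2 ratio 0.25). Over these 5 segments the summed counts were 184.3, 298.6 and 336.5 RPM in *At*MKIP1-YFP and 194.1, 195.4 and 202.8 in *At*BE3-YFP. The ratio of means was 1.38, although *At*MKIP1-YFP library 1 was the lowest of all 6.

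The ratio rose again at the 3′ end. The 2-nt segment at nt 35936 to 35937, at the stop codon of *psbZ*, had 36, 82 and 91 reads in *At*MKIP1-YFP and 44, 22 and 35 in *At*BE3-YFP. In RPM the groups did not overlap, with 16.26 as the lowest *At*MKIP1-YFP value and 16.05 as the highest *At*BE3-YFP value, and the log2 ratio was 0.99 (standard error 0.23). Past the frame, nt 35971 to 36081 had 64.60, 86.03 and 109.1 RPM against 52.90, 56.21 and 39.82, a log2 ratio of 0.81 (0.19). All 3 segments past *psbZ* had separate groups, and the ratio of their summed levels was 1.71.

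In the 2 input segments that cross the ends of the window the groups overlapped. The segment at nt 31438 to 31793 overlaps the end of *trnT*, but most of it lies inside the window, where it is the upstream part of the leader. It had 2465, 3135 and 2583 RPM in *At*MKIP1-YFP and 2514, 2346 and 2956 in *At*BE3-YFP (log2 ratio 0.07, standard error 0.16). The segment at nt 36082 to 36517, which reaches *trnG*, had a log2 ratio of 0.09 (0.15). These levels are far above those of their neighbours inside the cluster, and reads of the tRNA genes and of the cluster cannot be told apart within them.

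**Figure D2:**
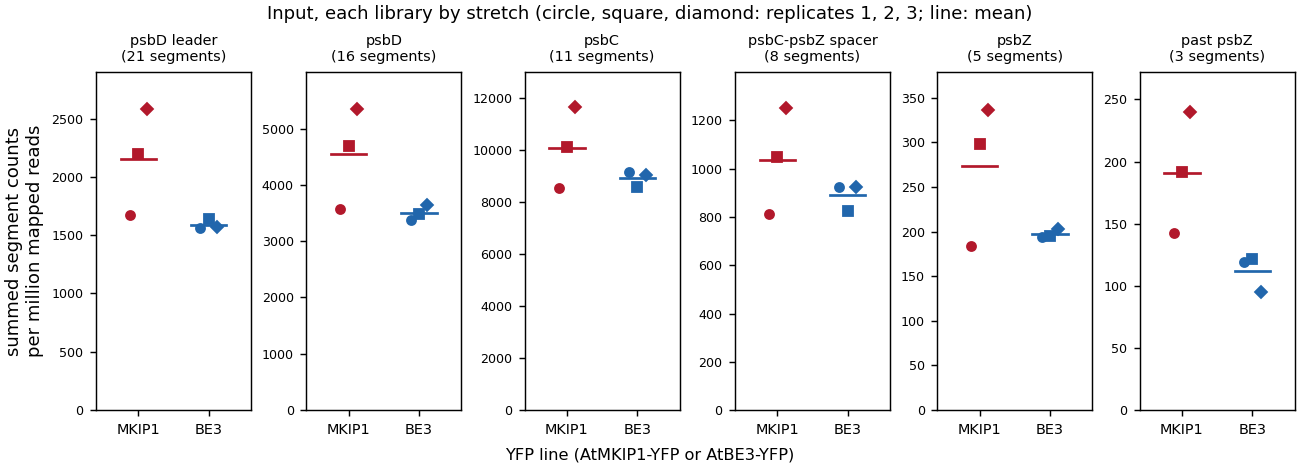
Summed segment counts in RPM (vertical axes from 0) are shown for each input library of both lines, by stretch, with a line for the mean of 3 libraries. Library 1 of *At*MKIP1-YFP is its lowest and library 3 its highest in each stretch, and past *psbZ* the lines do not overlap (142.3 to 239.9 against 95.23 to 121.3).

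The *At*MKIP1-YFP libraries differed among themselves in the same order in all 6 stretches. In the leader the sums were 1671, 2194 and 2582 RPM, against 1561, 1638 and 1570 in *At*BE3-YFP. Over the whole window, with counts of crossing segments shared out by length, the *At*MKIP1-YFP inputs held 17090, 21310 and 23690 RPM and the *At*BE3-YFP inputs 17540, 16920 and 18100. The spread between libraries was 3342 (SD, n = 3) in the former and 590.4 (SD, n = 3) in the latter. What made library 1 differ from library 3 was not tested.

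The question in the precipitates was whether either bait recovered RNA of the cluster beyond the other. RNA of the cluster was recovered with both baits, and none of its segments was higher with *At*MKIP1-YFP. Of the 5 segments, 2 were lower with *At*MKIP1-YFP at an adjusted p under 0.01 in edgeR's quasi-likelihood test over 553 segments, and 0 were higher. DESeq2 called 3 lower, and neither DESeq2 nor an unadjusted p under 0.05 gave a higher segment (0 by each). Of all tested precipitate segments 15.2% were called lower and 72.3% higher. Of the tested segments, 418 lie in a chosen set of intron-containing genes and their neighbours, called target loci here. The paper reports RNA of these intron-containing genes as enriched with *At*MKIP1-YFP in this same experiment. Their high values in this contrast were thus known before they were set apart, and other intron-containing genes count as outside. Values relative to segments outside the target loci, or scaled on them, depend on this choice. Outside the target loci 62.2% of the 135 tested segments were called lower, and their median log2 ratio was −0.73, the 5 segments of the cluster included. The values are shares of all mapped reads, so each segment is also given relative to this median.

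In the upstream leader, nt 31739 to 31972, the baits overlapped. The counts were 376, 628 and 549 in the *At*MKIP1-YFP precipitates and 246, 652 and 207 in those of *At*BE3-YFP. In RPM these are 1762, 1969 and 2048 against 1532, 2531 and 1728, with the highest and the lowest value both from *At*BE3-YFP. The log2 ratio was −0.01 (standard error 0.21, adjusted p = 0.965 by edgeR), which is 0.72 above the median outside the target loci. Of those 135 segments, 118 had a lower value. Scaled on segments outside the target loci the log2 ratio was 0.60 (adjusted p = 0.0163), and without *At*BE3-YFP replicate 2 it was 0.24, so its sign depends on the scaling and on the libraries.

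The next segment, nt 31973 to 33415, joins the rest of the leader and most of *psbD*. Its counts were 2478, 3698 and 3005 with *At*MKIP1-YFP and 2227, 4533 and 1933 with *At*BE3-YFP. In RPM, *At*MKIP1-YFP had 11610, 11590 and 11210 and *At*BE3-YFP 13870, 17590 and 16140, without overlap. The log2 ratio was −0.47 (standard error 0.18, adjusted p = 0.0249 by edgeR), which did not pass, whereas DESeq2 called it (adjusted p = 0.00389). It lay 0.26 above the median outside the target loci and turned to 0.14 when scaled on these segments.

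The largest difference was in the 37-nt segment inside *psbD*, nt 33416 to 33452. The counts were 118, 138 and 165 with *At*MKIP1-YFP and 226, 262 and 331 with *At*BE3-YFP, although libraries 1 and 3 of *At*BE3-YFP were the shallowest of the 6. In RPM these are 553.0, 432.6 and 615.4 against 1408, 1017 and 2763, so the groups did not overlap and *At*BE3-YFP library 3 stood above the other 2. The log2 ratio was −1.68 (standard error 0.32, adjusted p = 0.000205 by edgeR), 0.95 below the median outside the target loci, where 6 of 135 segments were lower. Without *At*BE3-YFP replicate 3 it was −1.18 and still passed (adjusted p = 2.67e-05 by edgeR). It also passed when scaled on segments outside the target loci (−1.08, adjusted p = 0.00725), and had the same sign but did not pass with no scaling (−0.96, adjusted p = 0.0823). The border positions were set on this same contrast, and the p-values do not allow for that.

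The segment that follows, nt 33453 to 33952, covers the end of *psbD*, the overlap and the start of *psbC*. Its counts were 1357, 1955 and 1543 with *At*MKIP1-YFP and 1708, 2726 and 1284 with *At*BE3-YFP. In RPM, 6359, 6128 and 5755 stood against 10640, 10580 and 10720, and the *At*BE3-YFP libraries were closer together than in the other segments. The log2 ratio was −0.81 (standard error 0.17, adjusted p = 0.000467 by edgeR). Relative to the median outside the target loci it was −0.08, and scaled on these segments it did not pass (−0.20, adjusted p = 0.288), so its value was that of a typical segment outside the target loci.

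In *psbC* the precipitates have a segment of only 4 nt, nt 33953 to 33956, and the rest of the gene, *psbZ* and *trnG* lie in 1 segment that runs on to nt 46756. The 4-nt segment, in effect the read depth at a point, had 378, 566 and 423 counts with *At*MKIP1-YFP and 375, 644 and 245 with *At*BE3-YFP. In RPM these are 1771, 1774 and 1578 against 2336, 2500 and 2045. The log2 ratio was −0.43 (standard error 0.17, adjusted p = 0.0294 by edgeR), with separate groups but not past the threshold. The long segment had −0.68 (0.18, adjusted p = 0.002685), and the segment that ends at the leader, nt 28272 to 31738 with *trnT*, had −0.91 (0.17, adjusted p = 0.0001694). No value for *psbZ* alone can be given in the precipitates. Of the 5 segments, 4 had every *At*MKIP1-YFP library below every *At*BE3-YFP library, where 17.9% of all tested segments did so. That share is held down by the 418 segments in the target loci, whose median log2 ratio was 2.61. Outside these loci 62.2% of 135 segments were called lower at an adjusted p under 0.01, against 2 of the 5 segments of the cluster. Segments without overlap were not counted outside these loci, so nothing about the cluster is read from the 4 segments.

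**Figure D3:**
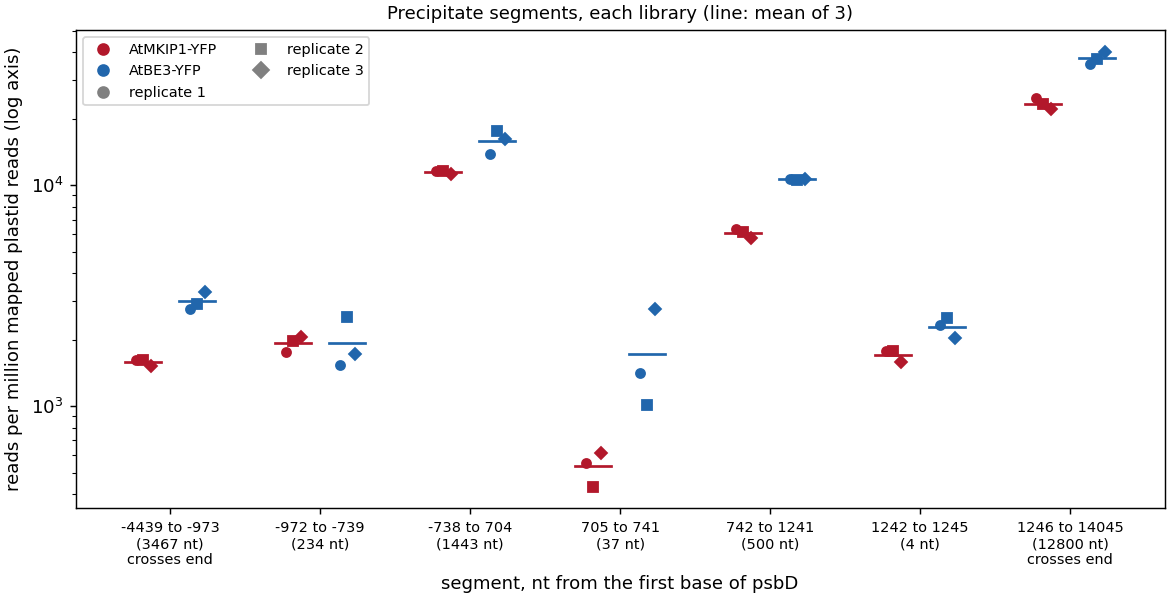
Reads per 1000000 mapped plastid reads (RPM) (log axis) are shown for each precipitate library in the 5 segments of the cluster and the 2 that cross its ends, named by distance in nt from the first base of *psbD*, with a line for the mean of 3. The baits overlap in the upstream leader (1532 to 2531 against 1762 to 2048) and stand farthest apart in the 37-nt segment (1017 to 2763 against 432.6 to 615.4).

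Over the window as a whole the *At*MKIP1-YFP precipitates held 26350, 25900 and 25010 RPM and the *At*BE3-YFP precipitates 35930, 40650 and 40340. The log2 ratio of means was −0.60, and the exact two-sided permutation test gave p = 0.10, the smallest that 3 against 3 libraries allow. Scaled on reads outside the target loci the ratio was 0.01 (exact permutation p = 1.0).

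Ratios between segments of 1 library do not depend on library size or on the target loci. They were chosen after the values were seen, and 5 were compared between the baits, with segments set against each other by their read rates at 60 nt. The upstream leader over the segment of leader and *psbD* was 0.778, 0.871 and 0.937 in the *At*MKIP1-YFP precipitates and 0.566, 0.737 and 0.549 in those of *At*BE3-YFP. All *At*MKIP1-YFP libraries were thus above all control libraries, by 0.48 on the log2 scale (exact permutation p = 0.10, adjusted 0.125 over the 5 ratios).

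The 37-nt segment over the segment of leader and *psbD* was 0.745, 0.584 and 0.859 with *At*MKIP1-YFP and 1.59, 0.904 and 2.68 with *At*BE3-YFP, a log2 difference of −1.24 (exact permutation p = 0.10, adjusted 0.125). *At*BE3-YFP library 2 was close to the highest *At*MKIP1-YFP library, and without *At*BE3-YFP replicate 3 the difference was −0.77. Set over the segment that follows it, the same 37 nt overlapped between the baits, with 0.411 to 0.623 against 0.560 to 1.501 (exact permutation p = 0.20, adjusted 0.20). The local drop is therefore not separated from its downstream neighbour by the spread of the libraries.

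The end of *psbD* with the start of *psbC* over the segment of leader and *psbD* was 1.42 ± 0.0460 (SD, n = 3) with *At*MKIP1-YFP and 1.82 ± 0.225 (SD, n = 3) with *At*BE3-YFP. The 4-nt point in *psbC* over the stretch before it was 2.49 ± 0.0702 (SD, n = 3) against 1.91 ± 0.204 (SD, n = 3). Both had separate groups in opposite directions, each with an exact permutation p of 0.10 (adjusted 0.125). With the 37 nt left aside, the read rate thus rose from the segment of leader and *psbD* to the 4-nt point with both baits.

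**Figure D4:**
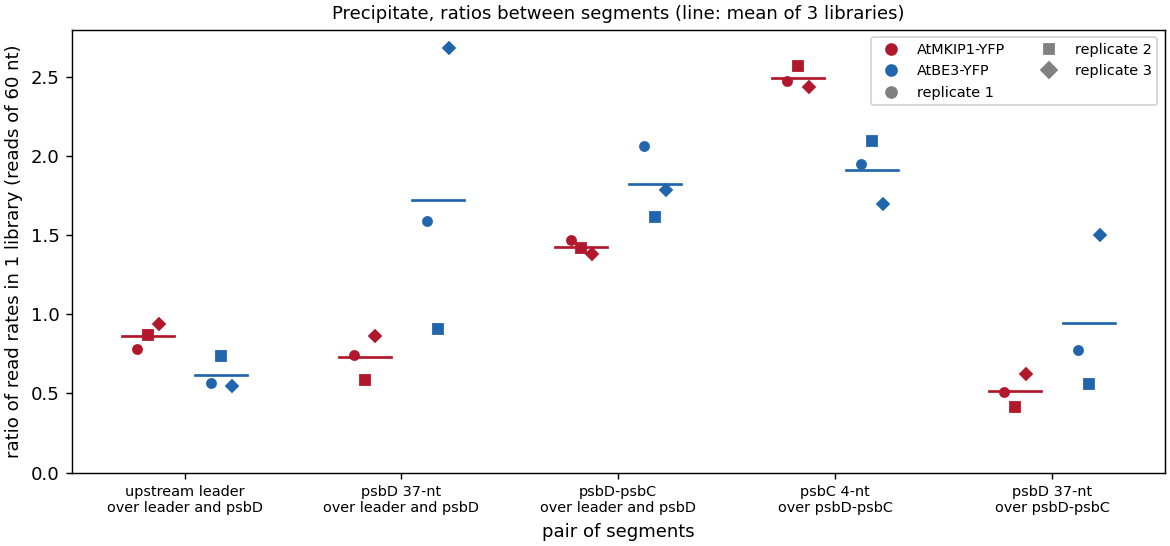
Ratios of read rates between segments of 1 precipitate library (vertical axis from 0, reads of 60 nt) are shown for the 3 libraries of each bait, with a line for the mean. The upstream leader over leader and *psbD* is 0.778 to 0.937 with *At*MKIP1-YFP and 0.549 to 0.737 with *At*BE3-YFP, and *At*BE3-YFP library 3 is the highest (2.68) for the 37-nt segment.

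The read rates of inputs and precipitates along the cluster are drawn side by side and were not compared with each other, since only the input RNA was depleted of ribosomal RNA and chemically fragmented.

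**Figure D5:**
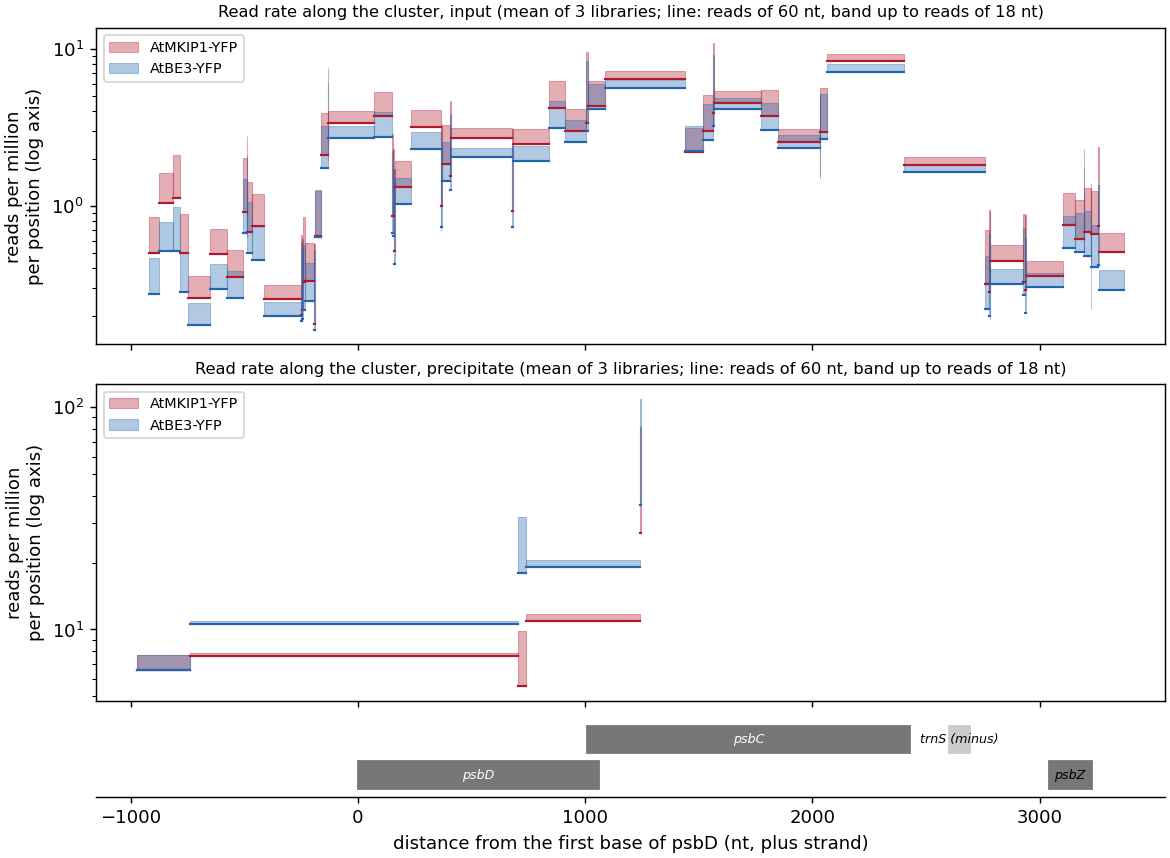
Mean read rate in RPM per position (log axes, 3 libraries per line) is drawn along the cluster for inputs and precipitates against distance in nt from the first base of *psbD*, with a line for reads of 60 nt and a band up to reads of 18 nt. The inputs step up shortly before *psbD* and are highest in *psbC* (8.32 at reads of 60 nt in *At*MKIP1-YFP), while the precipitates rise from 6.57 to 7.67 in the upstream leader to 10.9 to 11.8 before the 4-nt point with *At*MKIP1-YFP.

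As a gene, with the counts of segments at least 50% inside it summed, *psbD* was lower with *At*MKIP1-YFP. The sums were 6912, 6561 and 6371 RPM against 12050, 11600 and 13480, from 2 segments, and the log2 ratio was −0.90 (standard error 0.13, adjusted p = 4.35e-07 by edgeR over 38 genes and stretches). These segments hold the end of *psbD* and run into *psbC*, and most of the gene lies in the segment with −0.47 that did not pass. With every overlapping segment summed, *psbD* had −0.64 (adjusted p = 2.85e-10). Scaled on segments outside the target loci the first sum was −0.29 and did not pass (adjusted p = 0.0406). *psbC* rests on the 4-nt point and had −0.43 (0.19, adjusted p = 0.0338), turning to 0.18 under that scaling. The *psbD* leader, whose second segment is shared with *psbD*, had −0.41 (0.13, adjusted p = 0.0037), and turned to 0.20 under that scaling. Its call was lost without any 1 of the *At*MKIP1-YFP replicates or without *At*BE3-YFP replicate 2, with values of −0.42 to −0.31.

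The other genes of photosystem II that passed the test were lower too. Of 15 genes listed for this complex, 6 had segments of their own in the precipitates, and 5 of these, *psbD* among them, were lower and 0 higher with *At*MKIP1-YFP, where 60.5% of the 38 genes and stretches were lower. Scaled on segments outside the target loci, 2 of the 6 were lower. DESeq2 and an unadjusted p under 0.05 each gave 6 lower and 0 higher. The lowest were *psbL* with −1.33 (standard error 0.19), a small subunit next to the reaction centre, and *psbN* with −1.22 (0.16), whose protein acts in assembly of the complex. *psbA*, which encodes the D1 protein that pairs with D2, had −0.93 (0.18), and *psbB*, which encodes the antenna protein CP47, had −0.36 (0.12). The median of the list was −0.92 against −0.60 over all 38. The 38 include 9 called higher, with values up to 3.43, which raise that median and lower the share of 60.5%. Neither is therefore a background of genes outside the target loci, and no difference of photosystem II from such genes was tested. Of 5 genes of photosystem I, 3 had values and all 3 were lower, with −0.69 for *psaA* and −0.58 for *psaB*, the reaction centre proteins, and −1.20 for *psaC*, an iron-sulphur subunit.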

How the data were processed

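Plastid RNA of 12 libraries was analysed. The authors trimmed reads with Cutadapt, kept those of 18 to 60 nt, mapped them with STAR to the TAIR10 chloroplast genome without the second inverted repeat, and removed duplicates by 8-nt identifiers with UMI-tools (versions not given in the sources used here). The deposited counts are whole reads per segment and strand, with borders set by DiffSegR on the contrast between the lines, and reads that cross a border count on both sides. Only the input RNA was depleted of ribosomal RNA and chemically fragmented. Tables of the authors' own fold changes and p-values were not used. The mapped reads used as library size are labelled as counted after removal of duplicates for the precipitates. For the inputs the label does not say so.

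The comparison was made in R 4.3.3 by the quasi-likelihood F test of edgeR 4.0.16 (deposited mapped reads as library size, default filter, which every segment of the cluster passed, Benjamini-Hochberg over all segments, adjusted p under 0.01). The standard error is the log2 ratio divided by the root of F. DESeq2 1.42.0 was an alternative, beside other scalings, filters and membership rules. Permutation tests used scipy 1.17.1. Target loci are *trnK*, *atpF*, *trnV*, *trnI*, *trnA*, *rps12* with 800 nt of its first intron, and *rpl22* to *rpl23*. Other intron-containing genes were counted outside them.

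The text names all precipitate segments of the cluster, its genes, those at its ends, tRNA genes near it, and listed photosystem genes with values. Members and lists were chosen with earlier results of these data known. Replicates are separate pools of seedlings, and each SD gives the spread between these pools. Standard errors come from the fit over all segments or genes and are not that spread.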

Additional observations from a re-analysis of the deposited data

Results flagged for a closer look

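The segment of leader and *psbD*, nt 31973 to 33415, moved in opposite directions in the fractions. Each *At*MKIP1-YFP precipitate lay below the mean of *At*BE3-YFP, by −0.50 to −0.45 on the log2 scale with −0.47 for the mean, and each *At*MKIP1-YFP input lay above it over the 28 input segments wholly inside it, by 0.03 to 0.64 with 0.37 for the mean. It is listed because the *At*MKIP1-YFP libraries lay on one side of the *At*BE3-YFP mean in one fraction and on the opposite side in the other. *At*MKIP1-YFP input 1 did not stand apart from the control. At reads of 18 nt it had 1.97 RPM per position, against 1.86, 1.95 and 1.97 in *At*BE3-YFP. The input contrast chose the cluster, so the direction in the inputs is no finding, and the difference between the fractions was not tested. Scaled on segments outside the target loci the precipitate ratio was 0.14.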

How the results depend on the processing

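Precipitate calls depended on the scaling. Of the 5 segments, 2 were lower with mapped reads as library size, 5 with TMM factors, with DESeq2 size factors and with the sum of segment counts, 1 with scaling on segments outside the target loci, 0 with no scaling, 4 at an adjusted p under 0.05, and 4 when segments with any overlap were counted. Over all precipitate segments, 84 were lower at first, 198 with TMM factors, 185 with DESeq2 size factors, 18 with scaling outside the target loci and 1 with no scaling. With no scaling the log2 ratios turned to 0.49 at nt 31739 to 31972, 0.079 at nt 31973 to 33415 and 0.11 at nt 33953 to 33956. With scaling outside the target loci they turned to 0.60, 0.14 and 0.18. Sums turned under the same settings to 0.11 and 0.18 for *psbC*, and to 0.13 and 0.20 for the leader. *psbD* lost its call with −0.31 and −0.29, and the photosystem II list kept 0 and 2 lower genes in place of 5. The window as a whole turned to 0.011 with scaling outside the target loci. *psbC* passed with TMM factors (−2.59), DESeq2 size factors (−2.41), the sum of counts (−1.15), DESeq2 (−0.43), any overlap (−0.70) and an adjusted p under 0.05 (−0.43).

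Leaving out 1 library gave −0.50 to −0.36 for *psbC*, −0.50 to −0.31 for the leader, −1.96 to −1.18 for the 37-nt segment, and −0.15 to 0.24 at nt 31739 to 31972, where 0.24 was reached without *At*BE3-YFP replicate 2 and 0.05 with *At*MKIP1-YFP replicate 1 left out. The count of input segments called higher, a description here, was 8, and 2 to 23 without 1 library, with 23 without *At*MKIP1-YFP replicate 1. It was 2 with TMM factors, DESeq2 size factors or DESeq2, and 0 with no scaling.

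No sign of pairing by replicate number was seen. The correlations of same-numbered deviations were −0.12, 0.13 and −0.14 in the precipitates and 0.11, 0.06 and −0.14 in the inputs. Those of other-numbered libraries reached −0.24 and 0.21 in the inputs, so these values cannot show whether the libraries were handled in pairs. With a replicate block 2 precipitate segments were lower as before, nt 31739 to 31972 had 0.021, the leader sum had −0.40 (adjusted p = 0.035 by edgeR), and 2 input segments were called higher.

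Depth limits the short segments, with as few as 15 reads in a 2-nt input segment. Counts in neighbouring segments share reads and are not independent. With 3 pools per line no permutation p can fall below 0.10. The 37-nt segment was the only one of the 5 with a ratio below 0 under every scaling and library left out that also passed with scaling outside the target loci.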
